A study of Rattus norvegicus with 8 samples.

Results

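Endothelial identity and quiescence genes were followed in rat carotid arteries 2 weeks after intimal injury. The 10 genes were Pecam1, Cdh5, Vwf, Kdr, Tek, Tie1, Nos3, Flt1, Eng and Klf2. They were taken by symbol from a table of read counts on 37209 genes, and all 10 were found. The animals were male Sprague-Dawley rats of 400 g on average, and the labels name no engineered allele. The 4 injured samples were left carotid arteries dilated with a balloon catheter under isoflurane anesthesia. The 4 control samples were right carotid arteries that had not been dilated, so a control artery came from an animal that had been operated on. The labels name no separation of wall layers and no sham operation, and they do not say how far the endothelium had regrown. Each group held arteries of 1 side only, left or right, so the 4 arteries of a group would come from separate rats. The labels call the right artery a self-control, but they do not state which arteries of the 2 groups share a rat. The main p-values treat the arteries as independent and measure the spread between these samples.

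The total count lay between 13470754 and 15276952 in the control arteries and between 11459632 and 16658089 in the injured arteries. CPM is the count relative to the total of its library, scaled with the TMM factors of edgeR. A level of 3 counts was 0.18 to 0.262 CPM before these factors were applied, and such a floor reflects counting error alone. The extraction text in the labels names a brain region, although the tissue label names the carotid artery. Acta2 and Myh11, contractile proteins of smooth muscle, had at least 2739 CPM in each of the 8 arteries. Control artery 4 stood apart, since its log2 CPM correlated across genes with that of other controls at no more than 0.852, against at least 0.976 for pairs of the rest. The summed level of 9 sympathetic neuron genes was 8191 CPM in control artery 4 and 1366 CPM in injured artery 3, and it was at most 110 CPM in the remaining arteries. Where leaving out control artery 4 changed a call of the 10 genes, or a count of calls in a gene list by over 1.5 times, the value without it is given as well.

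The endothelium is the single cell layer that lines a vessel, and balloon dilatation is used in this model to strip it from the wall. Its cells hold together through VE-cadherin (Cdh5) and PECAM-1 (Pecam1), store von Willebrand factor (Vwf) in granules and sense growth factors through the VEGF receptors (Kdr, Flt1), the angiopoietin receptor Tie2 (Tek) with its partner Tie1, and the TGF-beta co-receptor endoglin (Eng). Under laminar flow a quiescent layer makes nitric oxide through endothelial nitric oxide synthase (Nos3) and expresses the transcription factor Klf2. Endothelial cells also line the capillaries, veins and lymphatics of the adventitia, so a whole artery holds more than its luminal layer.

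The 10 genes did not change in 1 direction. Kdr, Flt1 and Cdh5 were higher in the injured arteries, Vwf was lower, and the other 6 did not pass the test. A gene was called when its p from edgeR's quasi-likelihood test, adjusted by Benjamini and Hochberg's method over the 14359 genes tested (the FDR), was under 0.05 and its fold change exceeded 2. By this rule 3 of the 10 were called higher, where the share over all genes tested was 8.31% (1193 genes), and 1 was called lower, where it was 2.57% (369 genes). All 10 passed the filter on low counts. Without control artery 4, 2 were called higher (Kdr and Flt1) and 1 lower, and without control artery 4 and injured artery 3, a choice made after seeing the data, the 4 calls stood. Leaving out control artery 1 left 2 calls, Kdr and Vwf, and leaving out injured artery 4 left only Kdr. In 3 genes every injured artery lay above every control artery, which was so for 14.2% of all genes, and in 1 gene every injured artery lay below, which was so for 9.51%. The median log2 fold change was 0.01 over the 10 genes and -0.06 over all genes tested. In bulk samples a change in the number of endothelial cells and a change in RNA per cell cannot be told apart.

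**Figure D1:**
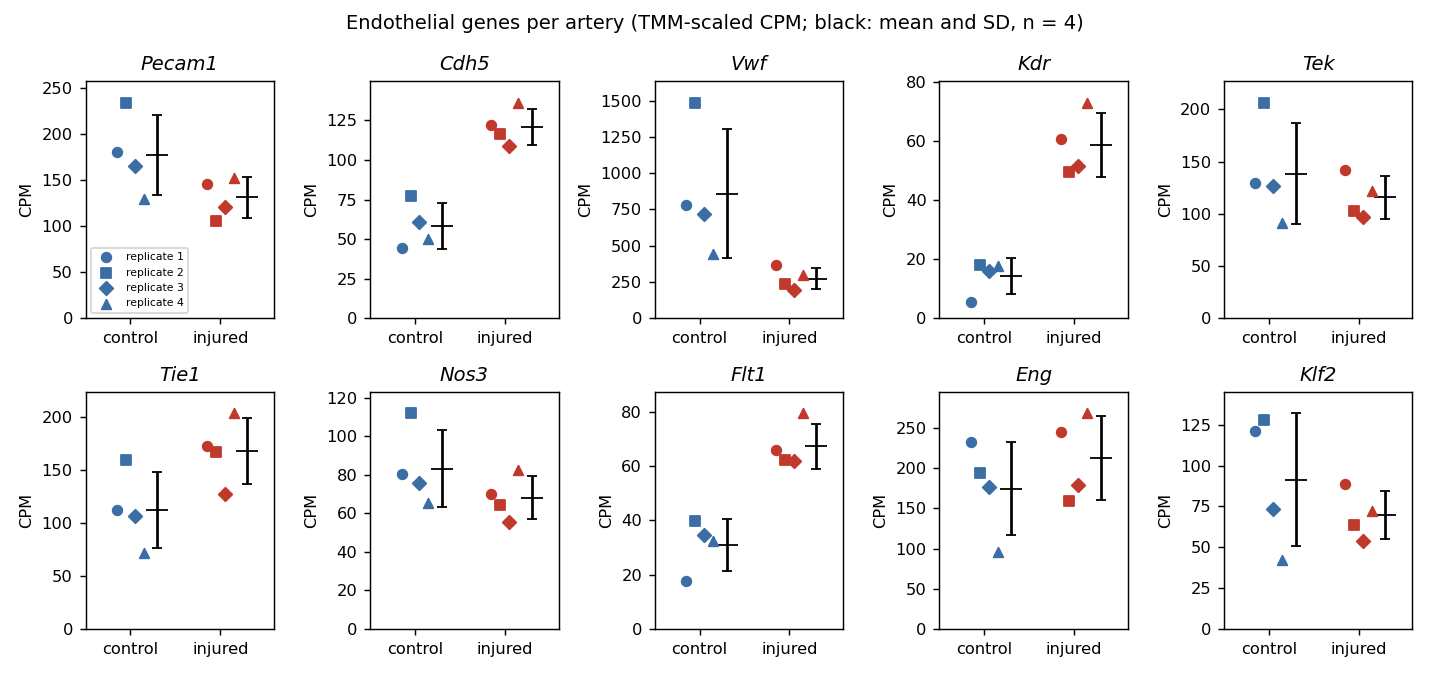
CPM of the 10 endothelial genes in each artery, 4 control (blue) and 4 injured (red), with the mean and SD of each group in black and a marker shape for each replicate number; each vertical axis starts at 0. Kdr, Flt1 and Cdh5 show separate groups with the injured arteries above, Vwf shows separate groups with the injured arteries below, and the groups of the other 6 genes overlap.

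**Figure D2:**
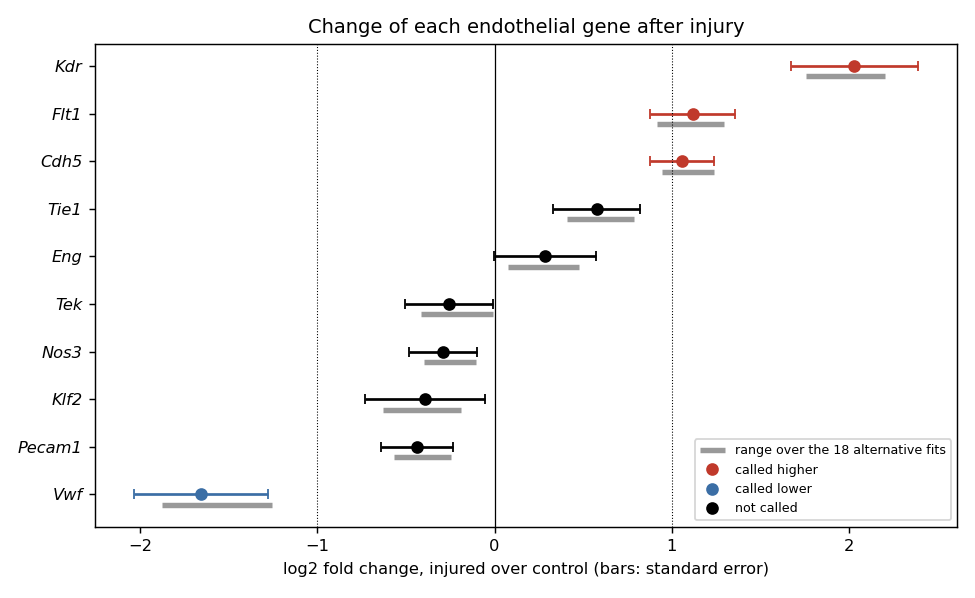
Log2 fold change of each gene, injured over control, with its standard error from edgeR's quasi-likelihood fit and the call shown by colour. Kdr lies farthest to the right at 2.03 and Vwf farthest to the left at -1.65.

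The VEGF receptors are described first. Promoter sequence from RefSeq (GRCr8) was at hand for 5 of the 10 genes, Kdr, Flt1, Tie1, Nos3 and Eng. It is shown for Kdr, which was called higher, and for Tie1 and Nos3, which were not called, so that the base sequence ahead of genes with different outcomes can be set side by side. Each sequence is read 5′ to 3′ on the strand of its gene and ends at the base before the gene's start. Capitals mark GGAA on either strand, the core that transcription factors of the ETS family bind.
Kdr, chr14:32571813-32572030, plus strand: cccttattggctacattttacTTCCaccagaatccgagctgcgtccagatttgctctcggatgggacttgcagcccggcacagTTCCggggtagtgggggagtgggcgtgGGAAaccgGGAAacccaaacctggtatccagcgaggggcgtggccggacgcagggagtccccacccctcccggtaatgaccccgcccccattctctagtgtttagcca
Tie1, chr5:137305048-137305231, minus strand: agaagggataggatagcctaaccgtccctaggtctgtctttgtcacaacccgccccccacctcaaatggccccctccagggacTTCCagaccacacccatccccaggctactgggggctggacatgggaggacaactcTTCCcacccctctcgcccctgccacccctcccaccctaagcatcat
Nos3, chr4:11706605-11706831, minus strand: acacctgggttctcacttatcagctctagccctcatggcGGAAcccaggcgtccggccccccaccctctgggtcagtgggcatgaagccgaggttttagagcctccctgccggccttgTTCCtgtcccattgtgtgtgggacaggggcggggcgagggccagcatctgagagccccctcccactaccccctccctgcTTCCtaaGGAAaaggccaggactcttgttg
The core occurred 4 times in the Kdr stretch, 2 times in that of Tie1 and 4 times in that of Nos3. In whole windows of 300 bases, 250 before and 50 after the annotated start, it was present 5 times for Kdr, 4 times for Tie1 and for Nos3, and 3 times for Flt1 and for Eng. It was found in 95.8% of the 33469 windows of that length, so its presence sets none of the 5 apart. The longer form CCGGAA, which contains the core, was matched 2 times in the Kdr window and in none of the other 4, while 15% of all windows held it. CACCC, the core of the boxes that Krüppel-like factors bind, was counted 4 times for Eng and for Tie1, 2 times for Nos3 and for Flt1 and once for Kdr, and 54.9% of all windows held it. TATAAA had 1 match, in the Flt1 window, against a share of 14.2%. Both strands were searched, and a match describes letters only.

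Kdr encodes VEGFR-2, the main signalling receptor for VEGF-A. It had 5.47, 18.2, 16.1 and 17.7 CPM in control arteries 1 to 4 and 60.8, 49.5, 51.5 and 73.1 CPM in injured arteries 1 to 4. Control artery 1 was the lowest, and the lowest injured artery was above the highest control. The mean was 14.4 ± 5.99 CPM (SD, n = 4) in the controls and 58.7 ± 10.8 CPM (SD, n = 4) after injury, a 4.09-fold rise in edgeR's fit. The log2 fold change was 2.03 (standard error, SE, 0.36, adjusted p = 0.00728). An exact two-sided permutation test of log2 CPM, with the arteries relabelled in all 70 ways, gave p = 0.0286, the smallest that 4 arteries against 4 allow. Kdr was called whichever single artery was left out, at a log2 fold change of 1.75 to 2.16. In a stricter edgeR test against a fold change of 2, its adjusted p was 0.0601.

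Flt1 encodes VEGFR-1, which binds VEGF-A tightly and, as a soluble form, acts as a decoy. Its levels were 17.6, 39.9, 34.5 and 32.2 CPM in the controls and 65.9, 62.3, 61.9 and 79.5 CPM after injury. The groups were again apart, and control artery 1 was again the lowest. The rise, from 31.0 ± 9.53 to 67.4 ± 8.28 CPM (SD, n = 4), was 2.17-fold. Its log2 fold change was 1.12 (SE 0.24, adjusted p = 0.0157), and the exact permutation p was 0.0286. Without control artery 1 the log2 fold change was 0.92, below the fold threshold, and without injured artery 4 the adjusted p was 0.0558. The counts are per gene, so the soluble and full-length forms were not separated, and in GRCr8 the span of Flt1 also holds 2 long noncoding genes and a pseudogene.

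The pair of VEGF receptors varied together. Over the 8 arteries their log2 CPM correlated at 0.992, the highest value of the 45 pairs of the 10 genes, and at 0.973 after the group means were taken away. These are descriptions over 8 arteries that may share animals, and the genes of a pair were read from the same libraries. VEGF ligands, angiopoietins, ligands and receptors of the endoglin pathway and the neuropilins were read as a list of 16 genes, of which 13 were tested. Only 1 of the 13 was called in edgeR's test, and it was higher. It was Nrp2, a co-receptor for VEGF-C and VEGF-A, with 42.0 to 86.7 CPM in the controls and 118.7 to 184 CPM after injury (log2 fold change 1.25, SE 0.25, adjusted p = 0.0115). With control artery 4 left out, Nrp2 was called higher and Angptl1, an angiopoietin-like protein, lower (log2 fold change -1.05, adjusted p = 0.0263). In 5 of the 13 every injured artery lay above every control, which was so for 14.2% of all genes. The median log2 fold change of the list was 0.48, against -0.06 over all genes tested.

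Markers of other cell types that can carry VEGF receptors were also higher in the injured arteries. The summed CPM of 7 lymphatic endothelial genes ran from 68.6 to 163 in the controls and from 176 to 326 after injury, and 3 of the 7 were called higher and 1 lower. Leaving out control artery 4 gave 5 called higher and 1 lower. Prox1, the factor that specifies lymphatic identity, named after its values were seen, then went from -0.07 on the log2 scale (adjusted p = 0.976) to 3.16 (adjusted p = 0.00468). Injured artery 3 stayed in that fit. The 2 arteries with a high sympathetic neuron sum also had the highest lymphatic sum of their groups, 163 CPM in control artery 4 and 326 CPM in injured artery 3. The part of nerve tissue in these values was not tested. Without control artery 2, control artery 3, injured artery 2 or injured artery 4, 2 of the 7 were called, both higher. Flt4, the VEGF-C receptor of lymphatic endothelium, rose from 5.79 ± 1.01 (SD) to 16.6 ± 4.22 CPM (n = 4; log2 fold change 1.52, adjusted p = 0.00356). Pdpn, the lymphatic membrane protein podoplanin, had a log2 fold change of 1.29 (adjusted p = 0.0108). Ccl21, a lymphatic chemokine, had one of 2.85 (adjusted p = 0.0381), and its call was lost in 4 of the 8 fits without 1 artery, those without control artery 2 or 3 and without injured artery 2 or 4. Mmrn1, a platelet and endothelial protein that is high in lymphatics, fell by 1.56 on the log2 scale (adjusted p = 0.0346), and only leaving out control artery 1 or control artery 4 kept that call. The 7 macrophage markers found in the table summed to 139 to 230 CPM in the controls and 1381 to 2252 CPM after injury, with 6 called higher. The 2 with the highest mean CPM, Lyz2, which encodes lysozyme, and Csf1r, a receptor of the macrophage lineage, had log2 fold changes of 4.38 (adjusted p = 0.000226) and 2.00 (adjusted p = 0.000391).

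Skeletal muscle genes moved in the same direction as Kdr. The summed CPM of 9 such genes was 253, 179, 123 and 84.5 in control arteries 1 to 4 and 764, 438, 304 and 1100 in injured arteries 1 to 4, and 7 of the 9 were called higher. Myh1, a fast-twitch myosin, had at most 6 counts in any control and at least 1309 in every injured artery. Within the injured group this sum ran in the same order as Cdh5, Flt1, Tie1 and Nos3, highest in artery 4, then 1, 2 and 3. Of these, Nos3 had a lower mean after injury. Kdr did not follow this order, with 49.5 CPM in injured artery 2 and 51.5 CPM in injured artery 3. Among the controls the order was different, since control artery 1 had the highest skeletal muscle sum and the lowest Kdr and Flt1. The part of these other cell types in the levels of Kdr, Flt1 and Cdh5 was not tested.

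**Figure D3:**
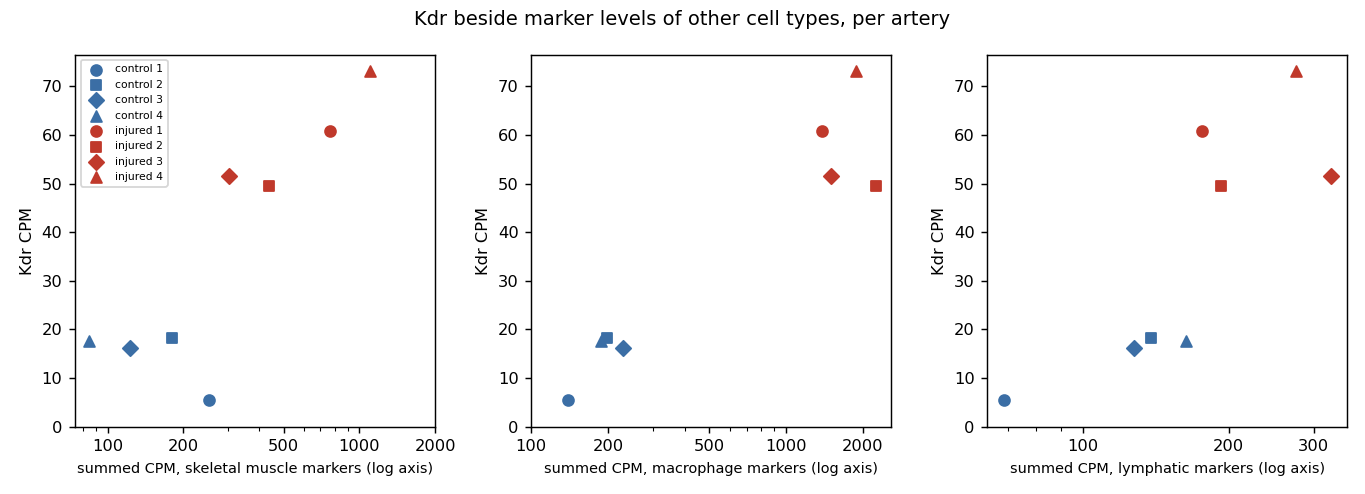
Kdr CPM (vertical axes, from 0) in each of the 8 arteries against the summed CPM of skeletal muscle, macrophage and lymphatic markers (horizontal log axes), control arteries in blue and injured arteries in red. The injured arteries lie above and to the right in all 3 panels, whereas among the controls the artery with the lowest Kdr, 5.47 CPM, has the highest skeletal muscle sum, 253 CPM.

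Of the junction genes, Cdh5 was higher and Pecam1 did not pass the test. Cdh5 had 44.7, 77.3, 60.8 and 49.8 CPM in the controls and 122, 116, 109 and 136 CPM after injury, with no overlap. Its mean rose from 58.1 ± 14.4 (SD) to 120.8 ± 11.5 CPM (n = 4), 2.08-fold, and the log2 fold change was 1.06 (SE 0.18, adjusted p = 0.0063, exact permutation p = 0.0286). The fold lay close to the threshold of 2. Cdh5 had a log2 fold change of 0.94 without control artery 1, of 0.98 without control artery 4 and of 0.99 without injured artery 4, each below a doubling, while the adjusted p was at most 0.0263 in these 3 fits.

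Pecam1 had 181, 234, 165 and 129 CPM in the control arteries and 146, 106, 120.3 and 153 CPM in the injured ones. The 2 highest injured arteries lay within the range of the controls. Its log2 fold change was -0.44 (SE 0.20, adjusted p = 0.188, exact permutation p = 0.114). Without control artery 4 it was -0.57 with an adjusted p of 0.0371, still short of the fold threshold. The difference between the 2 junction genes was not tested.

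Vwf, the gene for the clotting protein that endothelial cells store in Weibel-Palade bodies, was the 1 gene of the 10 called lower. It had 782, 1487, 719 and 443 CPM in the controls and 365, 238, 192 and 295 CPM after injury. Control artery 2 was the highest, and control artery 4, the lowest control, was still above every injured artery. The mean went from 858 ± 445 to 272 ± 74.3 CPM (SD, n = 4). Its log2 fold change was -1.65 (SE 0.38, adjusted p = 0.0206, exact permutation p = 0.0286), or 0.318 of the control level. The call was lost without injured artery 2 (log2 fold change -1.60, adjusted p = 0.0717) and without injured artery 4 (-1.70, adjusted p = 0.0648).

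Platelets and megakaryocytes also carry Vwf and Pecam1. The summed CPM of 8 platelet genes was 17.8 to 65.7 in the controls and 47.9 to 55.0 after injury. In edgeR's test none of the 3 platelet genes with enough counts was called, 1 had an unadjusted p under 0.05, and DESeq2 called none of 6. Gp1bb, a subunit of the platelet receptor for von Willebrand factor, had 0 counts in all 8 arteries, and Gp1ba had at most 4. Contractile smooth muscle genes were lower beside Vwf, with a summed CPM of 17429 to 50551 in the controls and 10558 to 16609 after injury. Of those 8 genes 5 were called lower and none had a positive log2 fold change. Without control artery 4 edgeR called 7 of them lower, without injured artery 1 or 2 it called 2, without control artery 1, 2 or 3 or injured artery 3 it called 1, and without injured artery 4 it called 0, with 6 at an unadjusted p under 0.05. The part of this shift in the CPM of Vwf was not tested.

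Neither angiopoietin receptor gene was called. Tek, which encodes Tie2, had 129.6, 207, 127 and 91.2 CPM in the controls and 142, 103, 96.5 and 122 CPM after injury, and every injured artery lay within the range of the controls. Its log2 fold change was -0.26 (SE 0.25, adjusted p = 0.528, exact permutation p = 0.543). Tie1, an orphan receptor that pairs with Tie2, had 112, 159, 107 and 72.0 CPM in the controls and 173, 167, 127 and 204 CPM in the injured arteries. Only control artery 2 lay within the injured range. With a log2 fold change of 0.58 (SE 0.25) its adjusted p was 0.154 and its exact permutation p 0.0571, and without control artery 4 and injured artery 3 the adjusted p was 0.0405 at a log2 fold change of 0.52, below the fold threshold. A long noncoding gene overlaps the end of Tie1 in GRCr8. Among the ligands, Angpt2, the antagonist that endothelial cells release, had a log2 fold change of -0.25 (SE 0.13, adjusted p = 0.241).

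Eng encodes endoglin, which presents BMP9 and BMP10 to the receptor Alk1 (Acvrl1). It had 233, 194, 176 and 95.4 CPM in the controls and 245, 159, 179 and 268 CPM after injury, with wide overlap. The log2 fold change was 0.28 (SE 0.29, adjusted p = 0.545, exact permutation p = 0.429). Acvrl1 had 261 ± 82.5 and 245 ± 33.4 CPM (SD, n = 4; log2 fold change -0.09, adjusted p = 0.838), and control artery 4 was its low sample with 138 CPM. Tgfbr2, the type II receptor for TGF-beta, had 285 ± 47.5 and 477 ± 24.4 CPM (SD, n = 4) without overlap, but its log2 fold change of 0.74 (adjusted p = 0.0125) stayed under the fold threshold. The ligand genes Gdf2 and Bmp10 had 0 counts in every artery.

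The flow-dependent genes Nos3 and Klf2 had lower means after injury, and neither passed. Nos3 had 80.3, 112, 75.5 and 65.1 CPM in the controls and 69.7, 64.4, 55.7 and 82.3 CPM after injury. Injured artery 4 lay above 3 of the 4 controls. The log2 fold change was -0.29 (SE 0.19, adjusted p = 0.348, exact permutation p = 0.257). Klf2 had 121, 128, 73.5 and 42.5 CPM in the controls and 88.9, 63.4, 54.0 and 72.4 CPM after injury. Control artery 4 was below every injured artery, while control arteries 1 and 2 were above them all. Its log2 fold change was -0.39 (SE 0.34, adjusted p = 0.478, exact permutation p = 0.514), and without control artery 4 it was -0.63 with an adjusted p of 0.0695. In GRCr8 Klf2 lies wholly inside the span of Eps15l1 and the end of Nos3 touches Atg9b, and the sources used here do not say whether counting used strand, so reads of these neighbours could be mixed.

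Of 11 genes that regulate nitric oxide synthases or belong to their family, 9 were tested, with 1 called higher and 2 lower, and without injured artery 2 edgeR called 0 of them, with 3 at an unadjusted p under 0.05. Cav1, the caveolar coat protein that holds Nos3 inactive and is abundant in smooth muscle as well, had 1372, 1799, 1523 and 643 CPM in the controls and 569, 472, 395 and 475 CPM after injury. Its log2 fold change was -1.48 (SE 0.31, adjusted p = 0.0137), and the call was lost without injured artery 2 or 4. The contractile smooth muscle sum was lower in the same arteries, and its part was not tested. Nostrin, a trafficking adaptor of Nos3, rose from 1.54 ± 0.625 (SD) to 4.29 ± 1.28 CPM (n = 4; log2 fold change 1.47, adjusted p = 0.0378). Nos1, the neuronal synthase, fell by 1.87 on the log2 scale (adjusted p = 0.0331), although injured artery 4 with 6.87 CPM was above control artery 4 with 6.53 CPM. Nostrin and Nos1 were each called in 2 of the 8 fits without 1 artery. Without control replicate 4 or injured replicate 3 Nostrin was kept, and without either artery 4 Nos1 was kept. Ddah2, which degrades an inhibitor of the synthases, had a log2 fold change of -0.02 (adjusted p = 0.936).

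Around Klf2, 14 genes were listed, among them upstream kinases, partners, mechanosensors, related factors and the target gene Thbd, and 13 were tested. Only Piezo1, a stretch-activated channel, was called. It had 41.3 to 63.8 CPM in the controls and 119 to 158 CPM after injury, a log2 fold change of 1.41 (SE 0.18, adjusted p = 0.00174), and was called whichever artery was left out. The most abundant others were Klf6, a related factor, and Heg1, a receptor of the junctional complex upstream of Klf2, with log2 fold changes of -0.56 (adjusted p = 0.437) and -0.45 (adjusted p = 0.253). The median of the list was -0.11.

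Because the 10 genes have in common that endothelial cells express them, each was also set against Cdh5 in the same artery, as counts per Cdh5 count. Cdh5 was chosen after the values had been seen, and these ratios are descriptions without a test. Only the Kdr ratio lay higher in every injured artery, at 0.426 to 0.537 against 0.123 to 0.355 in the controls. Over all genes this was so for 4.26%. The ratios of Pecam1, Vwf, Tek, Nos3 and Klf2, 5 in all, lay lower in every injured artery, but with Cdh5 itself higher this held for 59% of all genes.

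Vwf went from 17.5, 19.2, 11.8 and 8.90 counts per Cdh5 count in the controls to 2.99, 2.05, 1.77 and 2.16 after injury. Pecam1 went from 4.04, 3.03, 2.72 and 2.59 to 1.20, 0.907, 1.11 and 1.12. Nos3 had 1.24 to 1.80 counts per Cdh5 count in the controls and 0.512 to 0.604 after injury. Tek had 1.83 to 2.90 and 0.886 to 1.17, and Klf2 0.853 to 2.72 and 0.496 to 0.730. For Flt1 (0.394 to 0.648 and 0.535 to 0.584), Tie1 (1.45 to 2.51 and 1.17 to 1.49) and Eng (1.92 to 5.22 and 1.37 to 2.01) the groups overlapped. The Flt1 ratios after injury lay within the range of the controls.

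**Figure D4:**
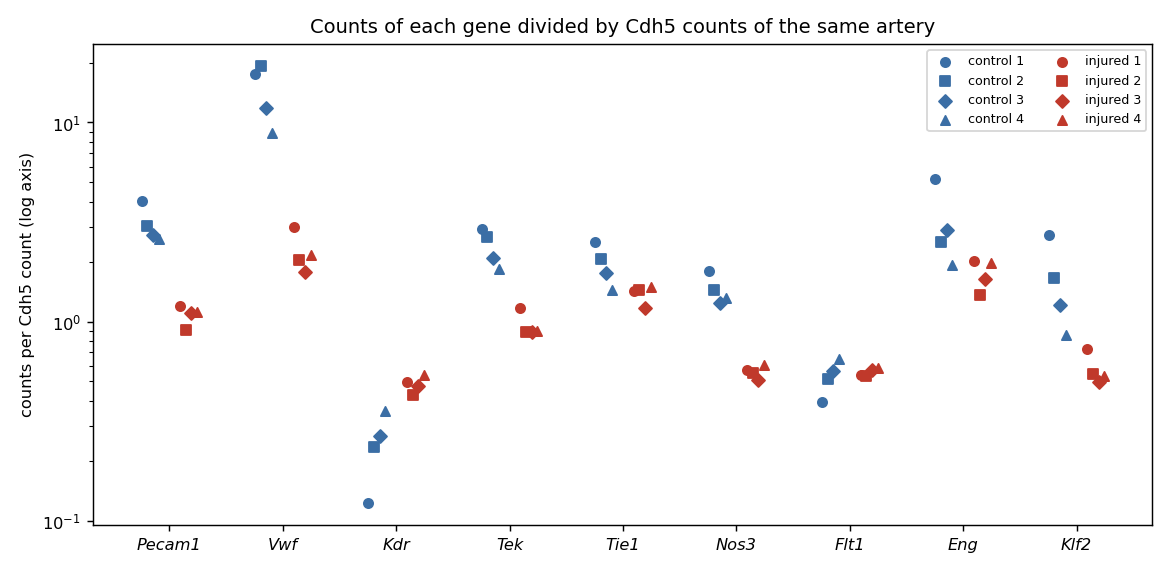
Counts of each gene divided by the Cdh5 counts of the same artery, on a log axis, for 4 control (blue) and 4 injured (red) arteries. The Kdr ratios of the injured arteries, 0.426 to 0.537, lie above all controls, those of Pecam1, Vwf, Tek, Nos3 and Klf2 lie below all controls, and those of Flt1, Tie1 and Eng overlap.

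Correlations across arteries changed once the group means were removed. Vwf and Kdr had the lowest correlation of the 45 pairs, -0.727 over the 8 arteries, and 0.116 within groups. Vwf and Tek correlated at 0.767 over all arteries and at 0.995 within groups, and both peaked in control artery 2. Pecam1 correlated with Vwf at 0.908 and with Nos3 at 0.911. These values rest on 8 arteries of 2 groups, and the genes of a pair were read from the same libraries.

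The mean standardized profile of the 10 genes was highest in control artery 2 and lowest in control artery 4. Of the genes outside the 10 with an average log2 CPM above 1, Ecscr, an endothelial surface protein, was most like it (Pearson r = 0.971 over the 8 arteries). RGD1305202 (0.965), Hspa12b (0.942), Esam, a tight junction adhesion molecule of endothelium (0.940), Hhex (0.934), Zdhhc3 (0.929), F11r (0.921), Snrpg (0.919), Rps15al4 (0.914) and Cd93, another endothelial surface receptor (0.910), followed. Their log2 fold changes ran from -0.08 for F11r to 0.34 for Cd93, with adjusted p from 0.401 to 0.969 in edgeR's test. The 10 genes moved in both directions, so their mean profile differed little between the groups. Small fold changes follow from choosing genes for likeness to that profile, and these values are no separate result on injury.

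Most genes in a wider set of endothelial genes did not pass the test. Of 25 other genes of endothelial cells in general, 24 were tested and 3 were called higher, and the median log2 fold change was 0.45. Emcn, the sialomucin endomucin of capillary and venous endothelium, rose from 12.7 ± 3.21 (SD) to 34.2 ± 6.86 CPM (n = 4; log2 fold change 1.43, adjusted p = 0.00518). Fli1, an ETS factor that blood cells also express, had a log2 fold change of 1.14 (adjusted p = 0.00575), and Calcrl, the adrenomedullin receptor, one of 1.32 (adjusted p = 0.0188). Emcn and Fli1 were called whichever artery was left out, whereas the call of Calcrl was lost without control artery 1 or 3 and without injured artery 1, 2 or 4. The most abundant 2 were Ptprb, the phosphatase that restrains Tie2 and VE-cadherin, at a log2 fold change of -0.51 (adjusted p = 0.205), and Mmrn2, a matrix protein of endothelium, with -0.65 (adjusted p = 0.129). For falls, edgeR gave 0 calls among the 24, with 2 at an unadjusted p under 0.05, and DESeq2 gave 0. For rises, 9 of the 24 had an unadjusted p under 0.05 in edgeR's test. Over all 14359 genes, 4472 had such a p in either direction. The log2 fold change was positive in 19 of the 24 and in 6494 of all genes. In 7 of the 24 every injured artery lay above every control, which was so for 14.2% of all genes.

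Genes of arterial endothelium moved in both directions. Of 10 listed, 9 were tested, 2 were called higher and 1 lower, with a median of 0.55. Without control artery 4, 3 were called higher and 2 lower, and without control artery 3 or injured artery 4 only 1 was called. Dll4, the Notch ligand of arterial and sprouting endothelium, rose from 6.32 ± 2.69 (SD) to 21.0 ± 4.42 CPM (n = 4; log2 fold change 1.73, adjusted p = 0.0138). Gja4, which encodes connexin 37, had a log2 fold change of 1.04 (adjusted p = 0.00576), close to the fold threshold, and its call was lost without control artery 3, control artery 4 or injured artery 4. Gja5, which encodes connexin 40, had 114 ± 59.5 CPM in the controls and 48.5 ± 9.13 CPM after injury (SD, n = 4), without overlap. It fell by 1.23 on the log2 scale (adjusted p = 0.0405), but of the 8 fits without 1 artery only that without control artery 4 kept the call. Hey2, an arterial Notch target, had a log2 fold change of -0.27 (adjusted p = 0.501).

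Markers of capillary and venous endothelium had a median of 1.01, with 3 of 10 called higher and 5 of 10 above the controls in every injured artery. Over all genes tested these shares were 8.31% and 14.2%. Aplnr, the apelin receptor of veins and sprouting vessels, had 5.04 to 12.1 CPM in the controls and 48.7 to 68.0 CPM after injury (log2 fold change 2.71, SE 0.27, adjusted p = 0.000705). Plvap, the diaphragm protein of fenestrated and venous endothelium, rose from 51.0 ± 1.65 (SD) to 165 ± 47.6 CPM (n = 4; log2 fold change 1.69, adjusted p = 0.00148). Nr2f2, the COUP-TFII factor of venous identity that fibroblasts and smooth muscle also express, had a log2 fold change of 1.15 (adjusted p = 0.0115). All 3 were called whichever artery was left out. Vwa1 and Ephb4 were the most abundant and were not called, at log2 fold changes of 1.61 (adjusted p = 0.12) and 0.67 (adjusted p = 0.0769), and control artery 4 was far from the other controls in both. Leaving it out gave Vwa1 a log2 fold change of 2.48 (adjusted p = 0.00388). Injured artery 3, the other artery with a high sympathetic neuron sum, stayed in that fit. It had the highest Vwa1 of its group, 366 CPM with the nearest at 186 CPM. The part of nerve tissue in the Vwa1 values was not tested.

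Of 6 genes of activated endothelium, 2 were called higher. Sele, the adhesion molecule E-selectin, rose from 2.06 ± 1.53 (SD) to 9.29 ± 1.87 CPM (n = 4; log2 fold change 2.17, adjusted p = 0.019), and its call was lost in 4 of the 8 fits, those without control artery 1 or 3 and without injured artery 1 or 2. Lrg1, a secreted angiogenic glycoprotein, had a log2 fold change of 1.48 (adjusted p = 0.00189). Vcam1, a leukocyte adhesion molecule that smooth muscle can also make, had 0.92 (adjusted p = 0.122) with no overlap of the groups. T cells, to which such molecules bind, had 2 of 6 tested markers called higher (1 without control artery 3 or injured artery 1, 2 or 4), among them Cd4 at a log2 fold change of 2.48 (adjusted p = 0.000325), which macrophages of the rat express as well. Fibroblast markers gave 1 called higher and 2 lower of 6. In edgeR's test none of 6 Schwann cell, 5 adipocyte or 5 sympathetic neuron genes tested was called, with 0, 1 and 0 of them at an unadjusted p under 0.05. DESeq2 called 1 of 5 adipocyte genes, lower, and none of 6 Schwann cell genes. It tested only 1 sympathetic neuron gene, which was not called. Without control artery 4 edgeR called 2 sympathetic neuron genes higher, with 4 of 5 at an unadjusted p under 0.05, and 1 Schwann cell gene higher. Without control artery 3 it called 1 Schwann cell gene higher, and without injured artery 3 it called 1 sympathetic neuron gene lower.

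**Figure D5:**
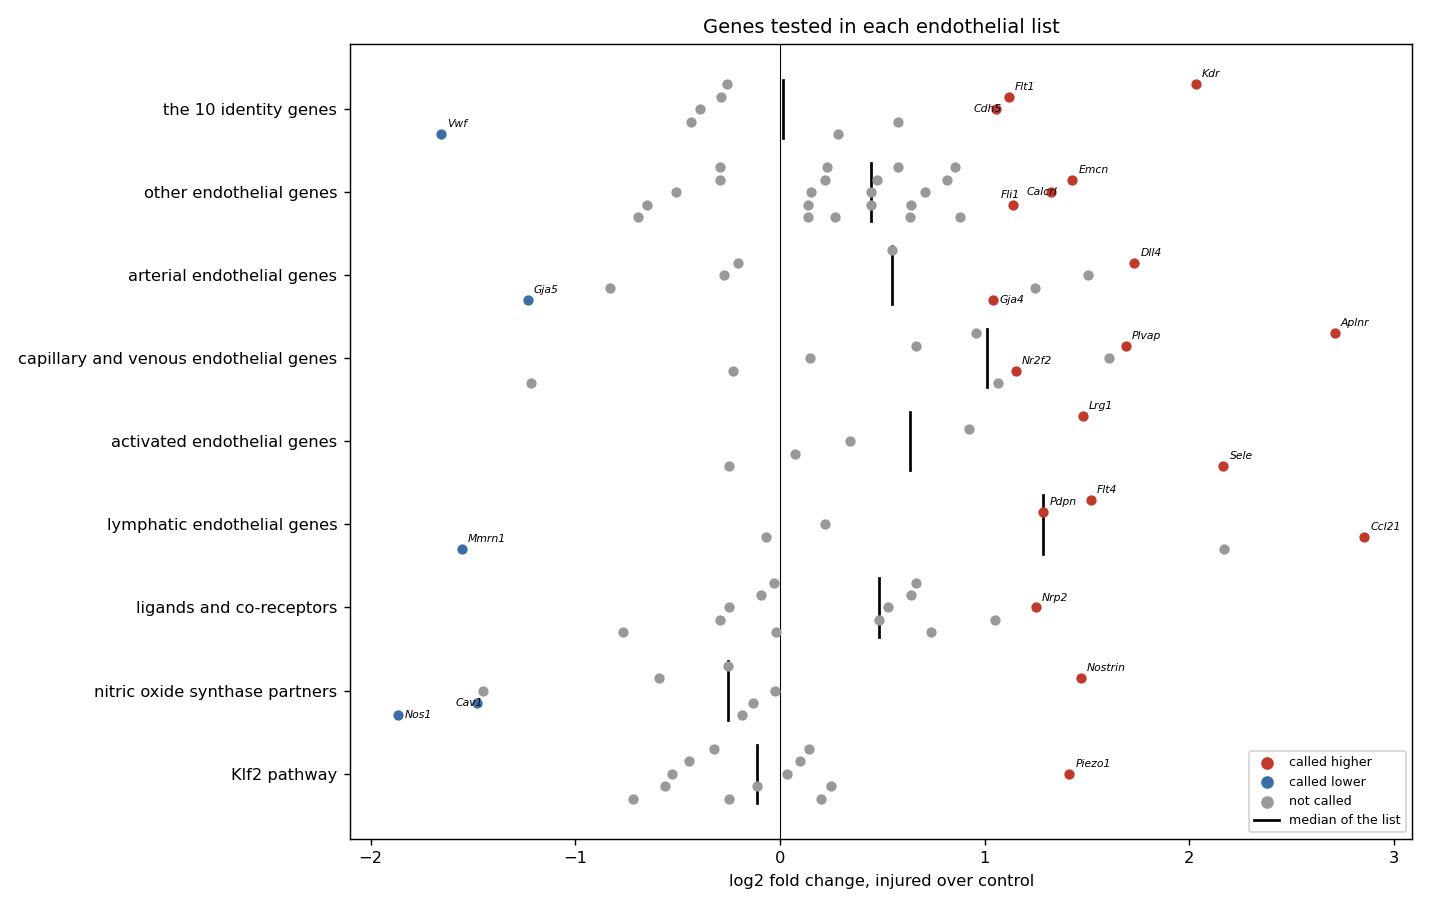
Log2 fold change, injured over control, of every gene tested in the 10 identity genes and in 8 further endothelial and pathway lists, called genes in colour and named, with a black bar at the median of each list. The median lies at 0.01 for the 10 identity genes, at 1.01 for capillary and venous genes and at 1.29 for lymphatic genes.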

How the data were processed

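mRNA sequencing of 4 injured and 4 control carotid arteries was analysed. The authors deposited raw read counts per gene symbol, and their processing notes name HISAT2 2.0.4. The counting tool, the use of strand and the genome build are not given in the sources used here. Samples were grouped by the labels. Counts were scaled with TMM factors, filtered with filterByExpr, and compared with the quasi-likelihood test of edgeR 4.0.16 in R 4.3.3 over 14359 genes. A call required an FDR under 0.05 with a fold change over 2, as in the study. The study used DESeq, and DESeq2 1.42.0 was one alternative. Log2 CPM used a prior count of 2 in the correlations and the profile, while the permutation test added a fixed amount to each CPM instead. The script was tested on simulated data. Members and lists were chosen with earlier results of these data known. Named were the 10 genes, the called genes and the 2 most abundant of each pathway list, selected genes of the marker lists and the 10 genes closest in profile. Of the listed symbols, Vegfd and Adgre1 matched no row. No 2 libraries held identical values. Totals of 11459632 to 16658089 counts limited the precision of low genes. The alternatives were other scalings and filters, a replicate block, a test against a fold of 2, calls by FDR only and leaving out arteries.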

Additional observations from a re-analysis of the deposited data

Results flagged for a closer look

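A sample was listed here when its gap to the nearest artery of its group, divided by the range of the group, exceeded the 95% critical value of Dixon for 4 samples. Of 108 groups of 4 values examined, 13 were past it, and chance alone gives about 1 in 20, or 5.4. Kdr was low in control artery 1, at 5.47 CPM with the nearest control at 16.1 CPM (ratio 0.838). Injured artery 4 was the high sample for Emcn (44.4 CPM, nearest 31.6 CPM, ratio 0.884), Dll4 (27.7 CPM, nearest 19.1 CPM, ratio 0.922), Aplnr (68.0 CPM, nearest 49.1 CPM, ratio 0.978) and Nos1 (6.87 CPM, nearest 2.81 CPM, ratio 0.867). Control artery 4 was high for Vwa1 (156.5 CPM, nearest 38.6 CPM, ratio 0.94) and low for Ephb4 (55.6 CPM, nearest 104 CPM, ratio 0.979), Acvrl1 (138 CPM, nearest 294 CPM, ratio 0.873) and Vcam1 (65.9 CPM, nearest 179.7 CPM, ratio 0.912). Injured artery 1 was high for Klf6 (359.8 CPM, nearest 206 CPM, ratio 0.83) and for the ratio of Tek to Cdh5 counts (1.17, nearest 0.895, ratio 0.966). The summed CPM of the sympathetic neuron genes was high in control artery 4 (8191 CPM, nearest 17.5 CPM, ratio 0.999) and in injured artery 3 (1366 CPM, nearest 110 CPM, ratio 0.928).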

How the results depend on the processing

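Every log2 fold change of the 10 genes kept its sign under the 18 alternatives, and 168 of the 180 values stayed on the same side of the calling rule. Kdr was called in 17 of the 18, Flt1 in 15, and Cdh5 and Vwf in 14 each. The test against a fold change of 2 called 0 of the 10 genes, higher or lower, 661 of all genes and 0 of the other endothelial, arterial, ligand, nitric oxide synthase, Klf2 pathway and activated lists. At an unadjusted p under 0.05 it had 2, 1, 1, 0, 3, 1 and 2 genes of these 7 lists, in the order named, where DESeq2 against no change called 2 ligand genes. The FDR alone called 2468 genes, 5 other endothelial genes and 3 ligand genes, at least 10 counts in every artery 1007 genes, and library totals alone 6 other endothelial and 2 ligand genes. Library totals alone also moved the median log2 fold change of all genes by 0.18. With 1 artery left out, between 1 and 4 of the 10 genes were called, 1 to 3 higher and 0 to 1 lower, and 1142 to 2398 of all genes. The same fits called 1 to 5 arterial, 1 to 2 ligand, 0 to 4 nitric oxide synthase and 1 to 2 activated genes, 2 to 6 lymphatic genes (4 with all arteries) and 0 to 7 contractile smooth muscle genes (5 with all arteries), and the lowest count of the 10 genes came without injured artery 4. The alternative without control artery 4 and injured artery 3, chosen after seeing the data, called 2473 genes, 6 arterial genes, 5 nitric oxide synthase genes and 4 of the 10.

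The labels call the right artery a self-control without saying that equal numbers mark 1 rat. After subtraction of the group means, arteries with the same number correlated at 0.301, 0.45, -0.52 and -0.416. Only replicate 2 was the best partner of its own number in both directions. Control artery 4 and injured artery 3, the 2 with a high sympathetic neuron sum, were each other's best partners. The part of nerve tissue in these correlations was not tested, so they cannot decide which arteries share a rat. No pairing was assumed. With the replicate block, 1187 genes were called by edgeR, of which 1137 were also called without it, and Kdr, Flt1 and Cdh5 were called. It called 0 of the 10 genes lower (1 at an unadjusted p under 0.05; Vwf -1.56, adjusted p = 0.0681) and 0 nitric oxide synthase genes (4 at an unadjusted p under 0.05), and it called 2 of the contractile smooth muscle genes and 1 T cell gene. The cause of these shifts was not tested. At 3 counts, 0.18 to 0.262 CPM without TMM factors, genes such as Gp1ba were not measurable at this depth.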
